A study of Mus musculus with 16 samples.

Results

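The comparison described here is between the 3 mouse intestinal organoid libraries titled APCCM and the 3 titled WTCM on culture day 4, over all genes. These 6 libraries are those of the 16 in the series whose title names day 4. Intestinal organoids are crypts grown in a gel matrix, where they form closed structures of stem, progenitor, absorptive and secretory cells. The study asked how Apc mutant cells act on wild type cells beside them at the start of an intestinal tumour. CM stands for conditioned medium, taken from wild type or Apc-/- organoid cultures and used with fresh mouse EGF, Noggin and R-spondin, per the labels' protocols.

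The labels give the genotype Apc mutant for the 3 APCCM libraries and WT for the 3 WTCM libraries, and the treatment Apc-mutant conditioned medium for all 6. Strain (C57BL6), culture day and growth factors are shared by both groups. Per the labels' protocols, wild type organoids came from Lgr5-EGFP-IRES-CreERT2 mice and carried mCherry (LeGO-C2). Apc-/- organoids came from Lgr5-EGFP-IRES-CreERT2;Apcfl/fl mice, were recombined in culture with 4OH-tamoxifen and carried Venus (LeGO-V2), and Villin-CreERT2.Apcfl/fl mice are also named as a source of crypts. The labels do not say from which line, animal or culture each library came, nor whether the 3 libraries of a title are separate cultures, so the p-values measure the spread between these libraries, which may be technical. The series' design text places conditioned medium on day 2 only and untreated organoids on both days, and the labels of single libraries were taken instead. Other libraries used for reference are 3 APCCM and 3 WTCM libraries of day 2 and, labelled with no treatment, 2 Apc mutant and 2 WT libraries of day 2. Levels are in CPM, the counts of a gene scaled to an equal total of counts in genes per library, after correction by the trimmed mean of M values (TMM).

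Wnt ligands at the crypt base stabilise beta-catenin, which with TCF factors switches on a set of target genes and keeps intestinal stem cells dividing. Apc helps to mark beta-catenin for destruction, so Apc mutant cells run this programme without a ligand and secrete Wnt antagonists such as Notum. Interferons act through factors such as STAT2 and IRF9 on a second set of genes, whose products block viral replication. Both sets are read out below, with the markers of each epithelial cell type.

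A title such as APCCM can name mutant cells or the source of the medium, and the Wnt targets bear on whether the cells are mutant. Notum, the secreted enzyme that removes the lipid from Wnt ligands, was at 0.293, 0.619 and 0.464 CPM in the APCCM libraries and 1.03, 0.805 and 0.591 CPM in the WTCM libraries on day 4, and at 258 and 312 CPM in the untreated Apc mutant libraries and 0.327 and 0.218 CPM in the untreated wild type libraries. Nkd1, a feedback inhibitor of the pathway, was at 1.17, 2.17 and 1.94 CPM in the APCCM libraries and 4.72, 4.65 and 4.65 CPM in the WTCM libraries, and at 439.5 and 532 CPM in the untreated Apc mutant libraries and 1.80 and 1.31 CPM in the untreated wild type libraries. Prox1, a transcription factor of Wnt-driven colon tumours, was at 3.67, 3.20 and 3.46 CPM in the APCCM libraries and 5.20, 5.06 and 4.25 CPM in the WTCM libraries, and at 1011 and 924 CPM in the untreated Apc mutant libraries and 4.41 and 3.05 CPM in the untreated wild type libraries. For these 3 genes every day 4 library, under either title, was within a few CPM of the untreated wild type libraries, and no untreated Apc mutant library was below 258 CPM. Axin2, a scaffold that Wnt signalling itself induces, was at 189, 171 and 188 CPM in the APCCM libraries and 290.2, 279.8 and 274 CPM in the WTCM libraries, and at 671 and 776 CPM in the untreated Apc mutant libraries and 174 and 156 CPM in the untreated wild type libraries. Every day 4 library was below both untreated Apc mutant libraries. Among the day 4 libraries, all 4 genes had lower means in those labelled Apc mutant than in those labelled WT.

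Few genes were far apart. Between the group means of the 2 titles on day 4, 1 gene with at least 5 CPM in either mean was 8-fold or more apart, with 0.5 CPM added to both, and between the untreated Apc mutant and wild type libraries 838 were. No gene had 0 counts in all 3 libraries of one title and at least 1 CPM in all 3 of the other. Apc itself (ENSMUSG00000005871) was at 281, 267 and 266 CPM in the APCCM libraries and 267, 237 and 269 CPM in the WTCM libraries (adjusted p = 0.34, edgeR's quasi-likelihood test), but a gene-level count need not fall when part of a gene is deleted. The Wnt targets thus favour the reading in which wild type cells were sequenced under both titles. They go against the genotype label Apc mutant of the 3 APCCM libraries. The title would then name the medium source. That reading also departs from the treatment label of the 3 WTCM libraries, which names Apc-mutant conditioned medium. Which medium each library received was not tested by these levels. The groups are called by their titles below. The untreated libraries also differed in Xist, which silences an X chromosome in females, with means of 3492 and 2069.8 CPM against at most 3.35 CPM in the 6 day 4 libraries. Ddx3y, a gene of the Y chromosome, was at 117 to 129 CPM in the day 4 libraries and at means of 0 and 0.0817 CPM in the untreated ones. The untreated libraries are therefore of other animals. They also differed in make-up, although the labels give all libraries the same kit. Histone genes, whose transcripts mostly lack a poly(A) tail, took 0.00505 to 0.00532% of gene counts in the untreated libraries and 0.398 to 0.502% in the day 4 ones, the non-coding gene Gm26917 took 0.00387 to 0.00952% and 7.68 to 8.88%, and 4.78 to 7.32% and 14.6 to 18.3% of all reads lay outside features. CPM levels are thus set across unlike libraries, and the part of this in the levels above was not tested.

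**Figure D1:**
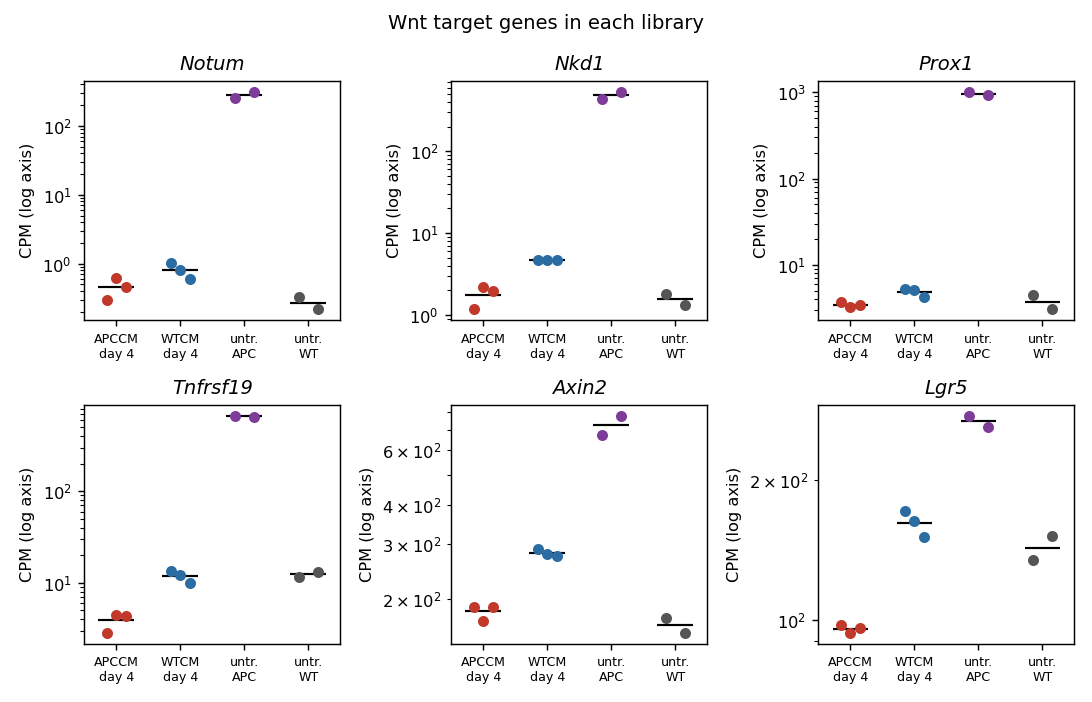
Level of 6 Wnt target genes in CPM on log axes, 1 point per library, with group means as lines, in the day 4 APCCM and WTCM libraries and the untreated (untr.) Apc mutant and wild type libraries of day 2. For Notum, Nkd1, Prox1 and Tnfrsf19 no day 4 point is above 13.3 CPM, and no untreated Apc mutant point is below 258 CPM.

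The day 4 libraries held 20211833 to 29152692 counts in genes, and 14612 genes passed the filter on low counts. WTCM replicate 1 stood apart in make-up. In that library 9 genes were over 2 times the mean of WTCM replicates 2 and 3, among 7663 genes of at least 20 CPM, and none were under 0.5 times that mean. They were Mir6236, Gm15564, Lars2, mt-Rnr1, mt-Rnr2, CT010467.1, Gm24270, Gm23935 and Gm42418, which the annotation lists as the ribosomal RNAs of mitochondria (mt-Rnr1 and mt-Rnr2), a ribosomal RNA (CT010467.1), small or long non-coding genes, and the mitochondrial leucyl-tRNA synthetase Lars2.

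These genes made up 7.73% of the scaled total in WTCM replicate 1 and 2.13 to 2.71% in the other 5 day 4 libraries. Lars2 was at 172, 162 and 343 CPM in the APCCM libraries and 3415, 256 and 292 CPM in the WTCM libraries, and mt-Rnr2 at 308, 212 and 533 CPM against 3182, 333 and 278 CPM. In the fit of all 6 libraries all 9 were called lower in the APCCM libraries (Lars2 log2 -2.55 ± 0.63 SE, adjusted p = 0.006). Without WTCM replicate 1, Lars2 gave log2 -0.28, adjusted p = 0.27 and mt-Rnr1 and mt-Rnr2 gave log2 0.10, adjusted p = 0.74 and log2 0.20, adjusted p = 0.48, and of the 9 Gm42418 alone was still called (log2 -0.20, adjusted p = 0.023). Reads with several alignments made up 33.3% of all reads in this library and 27.6 to 30.1% in the others. The first principal component, 49.2% of the variance, separated the titles with WTCM replicate 1 on the side of its own title, and the second (14.7%) set it apart. The counts below were also made without WTCM replicate 1. Among the same 7663 genes, APCCM replicate 3 had 4 over 2 times the mean of APCCM replicates 1 and 2, and 0 under 0.5 times that mean.

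**Figure D2:**
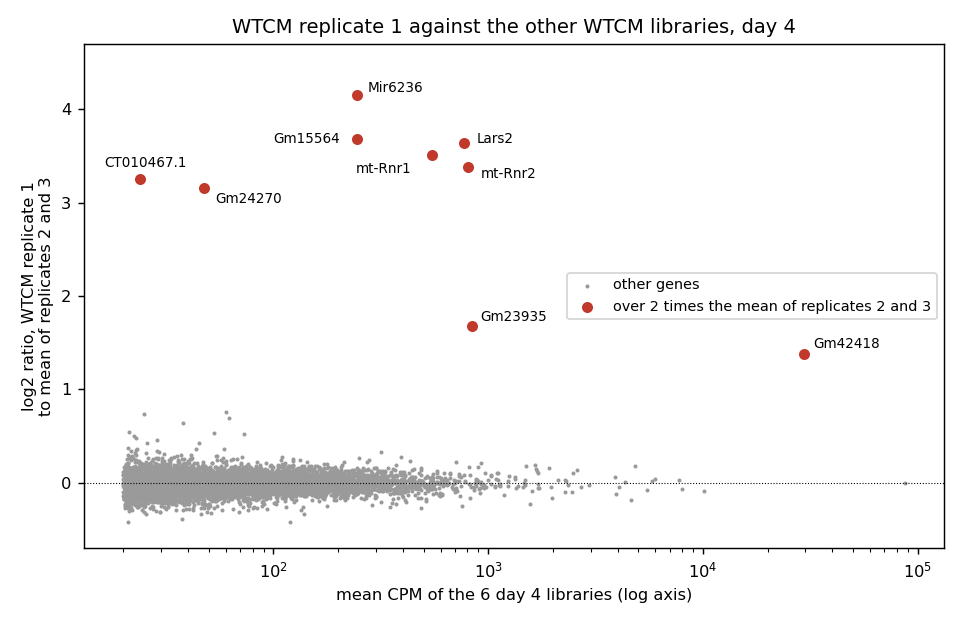
Log2 ratio of WTCM replicate 1 to the mean of WTCM replicates 2 and 3 for 7663 genes of at least 20 CPM, against the mean CPM of the 6 day 4 libraries on a log axis. The 9 genes over 2 times that mean, in red, stand above the other genes, which lie close to 0.

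On day 4, 3370 of 14612 genes (23.1%) differed between the titles at an adjusted p under 0.05 (quasi-likelihood test of edgeR, Benjamini-Hochberg adjustment), 1679 higher (11.5%) and 1691 lower (11.6%) in the APCCM libraries. Most differences were small, with a median size of 0.31 on the log2 scale for genes called higher and 0.28 for genes called lower. A change of at least 2-fold was called for 248 genes (1.7%), 133 higher (0.91%) and 115 lower (0.787%). Without WTCM replicate 1, 2927 genes were called, 2687 of them also called in the same direction with it, and 209 of the 248 remained called. 6 genes were called and at least 8-fold higher, namely Oasl2, Oas2, Oas3, Isg15, Rtp4 and Apol9a, all of them interferon-inducible. Bulk libraries cannot tell fewer cells of a type from less RNA per cell, which holds for every cell type marker below.

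Interferon-stimulated genes rose together in the APCCM libraries. Of 28 genes in the list 22 could be tested, 20 were called higher (background 11.5%) and none lower, and the median log2 fold change was 1.29 against -0.0022 over all genes tested. In 20 of the 22 all APCCM libraries were above all WTCM libraries, which held for 18.5% of all genes. The shares of all genes called, 11.5% higher and 11.6% lower, stand beside the counts of every list below. All lists were chosen with earlier results of these data known, so such counts describe their members and are no test. Oasl2, an oligoadenylate synthetase-like protein (ENSMUSG00000029561, chr5:114896936-114912234, GRCm38, plus strand), was at 8.12, 14.1 and 9.11 CPM in the APCCM libraries and 0.813, 0.537 and 0.295 CPM in the WTCM libraries (log2 fold change 4.31, SE 0.28, adjusted p = 1.7e-09). Isg15, a ubiquitin-like modifier, was at 0.538, 0.722 and 0.717 CPM in the APCCM libraries and 0, 0.134 and 0.0738 CPM in the WTCM libraries (log2 fold change 3.07, SE 0.56, adjusted p = 0.00054). Isg15 stayed below 1 CPM in every library, and the groups did not overlap for either gene. Ddx60, a helicase of the antiviral response, was at 9.34, 15.7 and 10.1 CPM in the APCCM libraries and 2.33, 2.01 and 2.25 CPM in the WTCM libraries, and Oas1a, which makes the second messenger that activates RNase L, at 7.58, 8.98 and 6.88 CPM in the APCCM libraries and 2.06, 2.69 and 2.88 CPM in the WTCM libraries.

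The promoters of some of these genes hold letters that match the interferon-stimulated response element, the known site of the complex that holds STAT2 and IRF9. Isg15 and Oas1a are members of the list. Ddx60 is no member and is not in the counts of windows for the list. They are shown because all 3 rose in the APCCM libraries and hold such a match. They are thus no sample of the genes that rose. The motif searched was GAAA, any 2 bases and GAAA again, on both strands, in RefSeq windows from 250 bases before to 50 after the start site (GRCm38.p6). Of the list's 28 genes 18 had a window, and 11 of their 21 windows (52.4%) held the motif, against 3.44% of all 32851 windows. Below, the 250 bases before the start are given 5′ to 3′ on the gene's strand, with motif matches in capitals. Where capitals run past 10 bases, matches overlap.
Isg15 (GRCm38.p6, chr4:156200819-156201068, minus strand): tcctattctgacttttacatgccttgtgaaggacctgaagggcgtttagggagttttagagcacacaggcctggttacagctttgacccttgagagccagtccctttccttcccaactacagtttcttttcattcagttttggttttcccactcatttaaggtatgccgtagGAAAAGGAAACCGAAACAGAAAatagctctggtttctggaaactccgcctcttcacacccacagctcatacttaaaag
Oas1a (GRCm38.p6, chr5:120907526-120907775, minus strand): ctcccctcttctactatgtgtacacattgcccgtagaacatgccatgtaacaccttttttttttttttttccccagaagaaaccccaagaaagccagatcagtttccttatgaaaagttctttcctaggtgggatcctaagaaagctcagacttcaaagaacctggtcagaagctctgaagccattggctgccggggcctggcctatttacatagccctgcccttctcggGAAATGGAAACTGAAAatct
Ddx60 (GRCm38.p6, chr8:61927837-61928086, plus strand): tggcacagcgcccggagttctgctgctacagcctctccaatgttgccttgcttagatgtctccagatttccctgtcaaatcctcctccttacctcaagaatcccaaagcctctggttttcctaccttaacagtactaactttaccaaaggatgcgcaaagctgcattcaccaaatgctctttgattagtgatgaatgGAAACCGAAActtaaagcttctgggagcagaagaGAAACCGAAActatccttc
In Isg15 the 3 matches began 78, 72 and 66 bases before the start site, in Oas1a the 2 matches 20 and 14 bases before it, and in Ddx60 the 2 matches 53 and 19 bases before it. Oasl2, Irf7 and Irf9, which also rose, had no match in their windows, and neither had Oasl1. This says only that these letters are not in those windows. For other lists the same search gave CTTTGAT, a TCF site, in 2 of 20 windows of Wnt targets and 0 of 19 of stem cell genes against 3.73% of all windows, and ACGTG, the core of the hypoxia element, in 15 of 28 windows of hypoxia genes (53.6%) against 19.6% of all. GGGA, any 2 bases and TTCC, an NF-kB site, stood in 7 of 20 windows of the NF-kB list against 1.47% of all, and of the 6 genes with it Nfkbia was the 1 called on day 4.

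Factors and effectors of the pathway were among the genes called higher. Irf7, the factor that amplifies interferon production, was at 18.2, 24.6 and 19.7 CPM in the APCCM libraries and 6.99, 7.16 and 5.72 CPM in the WTCM libraries (log2 fold change 1.66, SE 0.12, adjusted p = 6.9e-09). Irf9, which joins STAT2 in the interferon-activated complex, was at 20.8, 25.1 and 25.01 CPM against 9.81, 11.5 and 11.004 CPM (log2 fold change 1.13, SE 0.09, adjusted p = 4.1e-08). Stat2 rose by 0.64 on the log2 scale (adjusted p = 5.6e-06). Rtp4 (3.94 ± 0.479 against 0.310 ± 0.141 CPM, SD, n = 3), Oas2 (1.77 ± 0.296 against 0.155 ± 0.0593 CPM), Oas3 (3.02 ± 1.14 against 0.140 ± 0.0714 CPM) and Ifi27 (15.2 ± 1.29 against 4.51 ± 0.840 CPM) were higher in every APCCM library than in any WTCM library. APCCM replicate 2 was the highest library for Oasl2, Isg15, Ddx60, Oas1a, Irf7 and Irf9. Parp14, an ADP-ribosyltransferase, was at 50.5, 55.6 and 49.0 CPM in the APCCM libraries and 27.8, 25.6 and 27.0 CPM in the WTCM libraries (log2 fold change 0.95, SE 0.06, adjusted p = 2e-09). Rsad2, which encodes the antiviral enzyme viperin, gave log2 0.43 and was not called (adjusted p = 0.49). Oas, Oasl and Ifit genes have close paralogs, and reads with several alignments were not assigned to genes, so their levels are uncertain.

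Genes of antigen presentation moved less. Of 11 tested members of that list, 5 were called higher and none lower (median 0.20), and 3 were called without APCCM replicate 2 or without APCCM replicate 3. Tap1, a peptide transporter, was at 18.8, 23.6 and 21.0 CPM in the APCCM libraries and 14.4, 13.9 and 13.6 CPM in the WTCM libraries (log2 fold change 0.60, SE 0.09, adjusted p = 5.4e-05), and B2m, the light chain of class I molecules, rose by 0.26 (adjusted p = 0.00039). H2-K1, a class I heavy chain, gave -0.12 (adjusted p = 0.085). H2-Aa, H2-Ab1, H2-Eb1 and Cd74, the class II genes of the list, did not pass the filter on low counts.

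**Figure D3:**
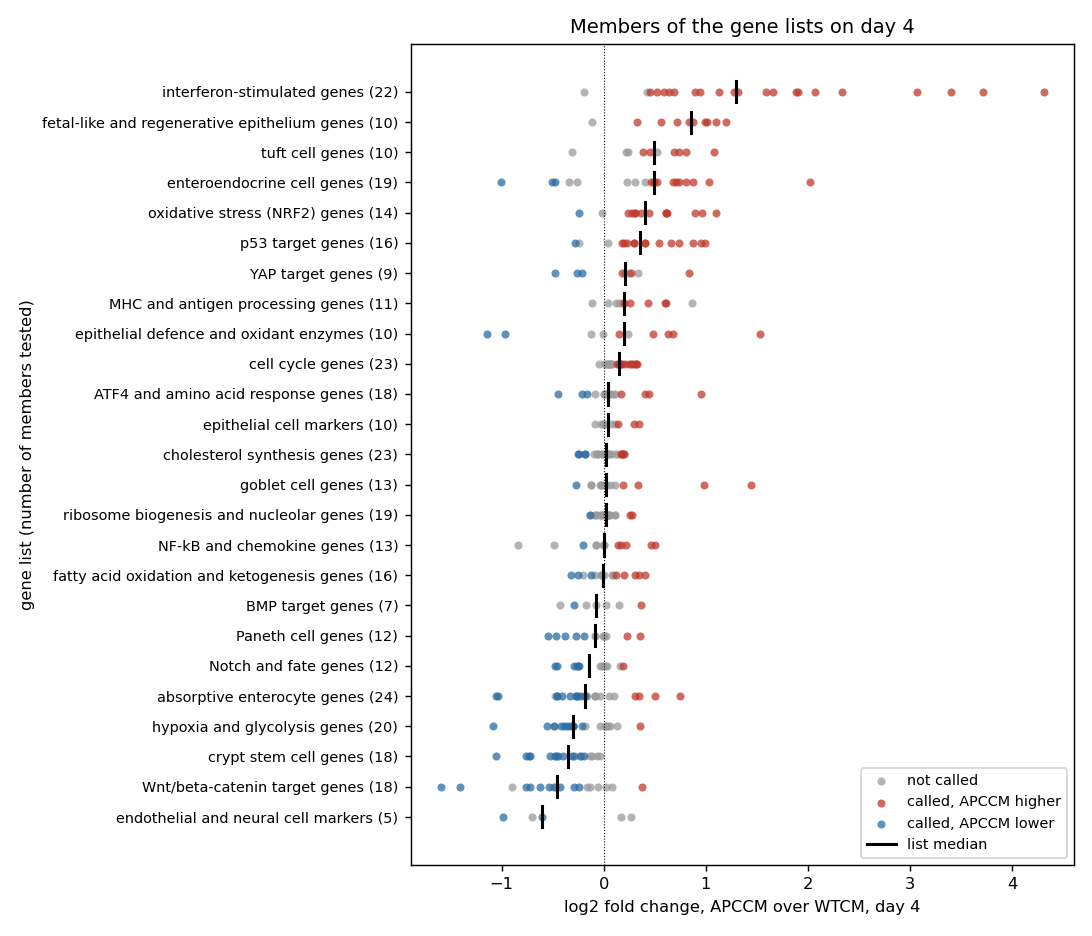
Log2 fold change between the APCCM and WTCM libraries on day 4 for each tested member of the 25 gene lists that had at least 5 tested members, ordered by list median (black bar). Red and blue points were called higher and lower at an adjusted p under 0.05. The list medians run from -0.60 for the 5 endothelial and neural markers to 1.29 for the interferon-stimulated genes.

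Wnt targets and crypt stem cell genes were lower in the APCCM libraries. Of 18 tested Wnt targets 10 were called lower (background 11.6%) and 1 higher, with a median of -0.46. Tnfrsf19 (Troy), a receptor of crypt stem cells that restrains Wnt signalling, was at 2.84, 4.44 and 4.34 CPM in the APCCM libraries and 13.3, 12.1 and 9.97 CPM in the WTCM libraries (log2 fold change -1.59, SE 0.15, adjusted p = 2.6e-07). Nkd1, whose values stand above, fell by 1.41 on the log2 scale (SE 0.19, adjusted p = 2.7e-05). Axin2 fell by 0.62 (SE 0.05, adjusted p = 2.8e-08), and Ascl2, the stem cell transcription factor, was at 9.63, 8.31 and 10.2 CPM in the APCCM libraries and 16.7, 17.8 and 12.3 CPM in the WTCM libraries (log2 fold change -0.72, SE 0.12, adjusted p = 0.0003). For each of these 4 genes the highest APCCM library was below the lowest WTCM library. The share of all genes in this same order is not reported here, so the order only describes these 4 genes. The reverse order, every APCCM library above every WTCM library, held for 18.5% of all genes tested.

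Rnf43 and Znrf3, ligases that remove Wnt receptors, were at 131, 129.7 and 135 CPM against 166, 154 and 149.5 CPM and at 56.0, 54.6 and 58.5 CPM against 72.3, 67.4 and 67.6 CPM, both called lower (adjusted p = 0.00048 and 0.00016). Sox9, a factor of crypt progenitors, and the receptor Ephb3 also fell, by 0.43 and 0.54. Prox1 gave -0.48 (adjusted p = 0.027) and was not called without APCCM replicate 2 or 3 or WTCM replicate 1 or 2 (adjusted p = 0.066 to 0.092). Not every target moved this way. Ccnd1, a cyclin of G1 phase, was at 218, 211 and 207 CPM in the APCCM libraries and 168, 169 and 152 CPM in the WTCM libraries and was called higher (log2 fold change 0.38, SE 0.05, adjusted p = 1.1e-05). Myc, Cd44 and Ephb2 gave 0.08, 0.02 and -0.05 (adjusted p = 0.19, 0.77 and 0.43). Tcf7, Lef1, Sp5 and Lrig1 gave -0.17, -0.90, -0.49 and -0.13 and were not called (adjusted p = 0.28, 0.077, 0.14 and 0.06), and Zic2 did not pass the filter. Of the 10 secreted Wnt antagonists Notum alone passed the filter (-0.78, adjusted p = 0.14), and 5 had 0 counts in all 6 libraries.

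Of 18 crypt stem cell genes, 3 of which are also Wnt targets of the other list, 13 were called lower and none higher, with a median of -0.35, and the same count held without WTCM replicate 1. Olfm4 was at 1448, 1274 and 1414 CPM in the APCCM libraries and 2896, 2877 and 2805 CPM in the WTCM libraries (log2 fold change -1.05, SE 0.05, adjusted p = 1.1e-11). Lgr5, the R-spondin receptor that marks these cells, was at 97.3, 93.7 and 96.2 CPM in the APCCM libraries and 171, 163 and 151 CPM in the WTCM libraries (log2 fold change -0.76, SE 0.05, adjusted p = 8.7e-10). Rgmb, a BMP co-receptor, was at 101, 96.1 and 91.5 CPM against 167, 158 and 155 CPM (log2 fold change -0.73, SE 0.04, adjusted p = 9.1e-10), and Slc12a2, a chloride importer, at 1445, 1302 and 1429 CPM against 2118, 2023 and 1859 CPM (log2 fold change -0.52, SE 0.05, adjusted p = 3.7e-07). In all 4 the 2 titles did not overlap, and WTCM libraries were the higher. The share of all genes with WTCM libraries higher and no overlap is not reported here, so this only describes the 4 genes. Among all genes tested, 18.5% did not overlap in the other direction. Smoc2 and Clca3b fell by 0.29 and 0.31, and Bmi1 and Tert, linked to reserve stem cells, by 0.39 and 0.47 (adjusted p = 0.0027 and 0.011). Tert was not called without APCCM replicate 2 (adjusted p = 0.062). Msi1, Hopx and Gkn3 fell by 0.23, 0.19 and 0.48 (adjusted p = 0.0018, 0.0023 and 0.00057), while Cdca7, Aqp4 and Igfbp4 gave -0.12, -0.04 and -0.22 and were not called (adjusted p = 0.11, 0.67 and 0.31). Tert was low, at 5.63 ± 0.865 against 7.80 ± 0.481 CPM (SD, n = 3). Prom1, with -0.07, was not called (adjusted p = 0.33). The Lgr5-EGFP allele named in the protocols may alter Lgr5 counts in lines that carry it, and its part in this result was not tested.

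Notch signalling keeps crypt cells out of the secretory fate, and 6 of 12 tested genes of that list were called lower and 1 higher (median -0.14). Notch1, the receptor, was at 124, 117 and 106 CPM in the APCCM libraries and 168, 148 and 158 CPM in the WTCM libraries (log2 fold change -0.45, SE 0.05, adjusted p = 4.1e-06). The ligand Dll1 and the target Hes1 fell by 0.25 and 0.29 (adjusted p = 0.006 and 0.00038). The 7 tested BMP targets showed no common direction, with 1 called higher and 1 lower (14.3% each, near the 11.5% and 11.6% of all genes).

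Secretory lineages were not shifted as a block. In the enteroendocrine list, 10 of 19 tested genes were called higher and 3 lower (median 0.49). Without APCCM replicate 1 or 3 or WTCM replicate 1 or 3, 8 were called higher, and 9 without APCCM replicate 2. Gcg, which encodes proglucagon, was at 6.89, 4.49 and 5.44 CPM in the APCCM libraries and 1.14, 2.28 and 0.775 CPM in the WTCM libraries (log2 fold change 2.02, SE 0.26, adjusted p = 1.3e-05). Chga, the granule protein chromogranin A, was at 156, 154 and 143 CPM in the APCCM libraries and 106, 92.0 and 85.9 CPM in the WTCM libraries (log2 fold change 0.68, SE 0.06, adjusted p = 7.2e-08), and Tac1, which encodes substance P, at 21.7, 19.7 and 19.99 CPM against 11.9, 11.5 and 10.2 CPM (log2 fold change 0.87, SE 0.09, adjusted p = 4.1e-07). The genes called higher encode hormones and granule proteins and Tph1, an enzyme of serotonin synthesis. The 3 called lower are transcription factors of early endocrine cells. Neurog3, which starts this fate, was at 15.3, 14.3 and 14.4 CPM in the APCCM libraries and 21.1, 18.7 and 21.3 CPM in the WTCM libraries (log2 fold change -0.48, SE 0.08, adjusted p = 0.00023). Pax4 and Insm1 were at 2.20, 2.68 and 2.40 CPM against 5.26, 4.47 and 4.87 CPM and at 15.2, 14.6 and 15.2 CPM against 21.2, 19.9 and 22.4 CPM (adjusted p = 0.00016 and 9.1e-05). Nts, neurotensin, gave 1.03 (adjusted p = 0.0099), with 2.74, 2.06 and 2.99 CPM against 2.06, 1.07 and 0.849 CPM, and was not called without APCCM replicate 3 or WTCM replicate 3 (adjusted p = 0.056 to 0.072).

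**Figure D4:**
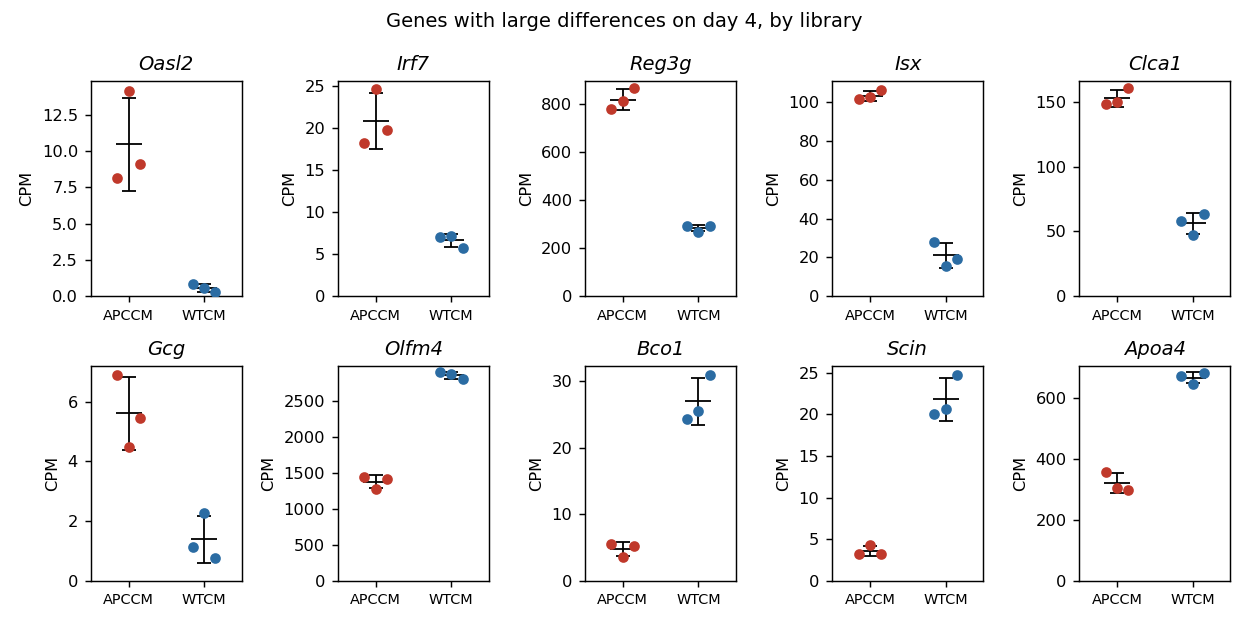
Level in CPM of 10 genes in each day 4 library, with the mean and SD of the 3 libraries of each title in black and axes that start at 0. Oasl2, Irf7, Reg3g, Isx, Clca1 and Gcg are higher in every APCCM library, and Olfm4, Bco1, Scin and Apoa4 are lower in every one.

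Tuft cells sense the gut contents and release lipid mediators. Of their 10 tested genes 6 were called higher and none lower (median 0.49), and 3 were called higher without WTCM replicate 3, at a low summed level of 59.4 to 69.5 CPM in the APCCM libraries and 41.8 to 51.3 CPM in the WTCM libraries. Dclk1, a kinase that marks them, was at 23.8, 19.9 and 19.95 CPM in the APCCM libraries and 16.3, 12.3 and 11.2 CPM in the WTCM libraries (log2 fold change 0.69, SE 0.11, adjusted p = 0.00016). Alox5, the enzyme of leukotriene synthesis, gave 1.08 (adjusted p = 0.022) and was not called when any library but WTCM replicate 1 was left out (adjusted p = 0.051 to 0.094). Pou2f3, the factor that specifies the lineage, gave -0.31 and was not called (adjusted p = 0.082).

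Of the goblet cell genes 30.8% were called higher and 7.69% lower, beside 11.5% and 11.6% of all genes tested. Clca1, a secreted protein of mucus, was at 148, 149.9 and 160.4 CPM in the APCCM libraries and 57.9, 47.3 and 63.4 CPM in the WTCM libraries (log2 fold change 1.44, SE 0.07, adjusted p = 3.4e-11), and Zg16, a lectin of mucus, at 256, 301 and 303 CPM against 133, 123 and 179 CPM (log2 fold change 0.98, SE 0.10, adjusted p = 3.7e-07). Muc2, the gel-forming mucin, rose by 0.33 (adjusted p = 0.0033). The factor Foxa3 fell by 0.27 (adjusted p = 0.0022), and of 13 members 8 were not called (4 higher, 1 lower or 3 lower without WTCM replicate 2, median 0.02). Of 12 tested Paneth cell genes 2 were called higher and 5 lower (median -0.09), with 3 called lower without APCCM replicate 1. Mmp7, which activates defensins, was at 64.7, 68.7 and 65.5 CPM in the APCCM libraries and 61.0, 46.3 and 48.6 CPM in the WTCM libraries (log2 fold change 0.36, SE 0.07, adjusted p = 0.0013), and the lectin Itln1 at 1437, 1331 and 1451 CPM against 2075, 1804 and 1951 CPM (log2 fold change -0.47, SE 0.05, adjusted p = 1.2e-06). Lyz1, lysozyme, gave -0.09 (adjusted p = 0.31). Defensin genes have near-identical copies and are uncertain here.

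Among absorptive enterocyte genes 11 of 24 were called lower and 4 higher (median -0.18). Apoa4 and Apoc3, apolipoproteins that leave the cell on lipid particles, were at 358, 306 and 299 CPM against 672, 647 and 684 CPM (log2 fold change -1.06, SE 0.06, adjusted p = 3.1e-10) and at 13.6, 12.3 and 12.4 CPM against 25.6, 27.97 and 24.7 CPM (log2 fold change -1.03, SE 0.08, adjusted p = 1.9e-08). Slc5a1, the glucose importer, and Sis, sucrase-isomaltase, fell by 0.46 and 0.25. Anpep and Mep1b, brush border peptidases, went the other way. Anpep was at 879, 998 and 921 CPM in the APCCM libraries and 569.5, 537 and 558 CPM in the WTCM libraries (log2 fold change 0.75, SE 0.05, adjusted p = 4.2e-09), and Mep1b rose by 0.50 (adjusted p = 4.4e-07).

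Isx, an intestine-specific homeobox factor that represses Bco1 and Scarb1, was at 102, 103 and 106 CPM in the APCCM libraries and 28.2, 15.4 and 19.4 CPM in the WTCM libraries (log2 fold change 2.32, SE 0.11, adjusted p = 3.4e-11). Bco1, which cleaves beta-carotene to retinal, was at 5.52, 3.51 and 5.19 CPM in the APCCM libraries and 24.3, 25.6 and 31.0 CPM in the WTCM libraries (log2 fold change -2.51, SE 0.13, adjusted p = 6.3e-11). Scarb1, a receptor that takes up lipids and carotenoids, was at 35.4, 38.0 and 35.1 CPM in the APCCM libraries and 54.3, 61.1 and 56.3 CPM in the WTCM libraries (log2 fold change -0.67, SE 0.06, adjusted p = 7.6e-08). Isx was high and Bco1 and Scarb1 were low in every APCCM library, and none of the 3 overlapped between titles. Among all genes tested, 18.5% had every APCCM library above every WTCM library, the order of Isx. The share in the order of Bco1 and Scarb1 is not reported here. Isx and Bco1 were named by the rule of size given with the processing, and Scarb1 was added after its value was seen. WTCM replicate 1 had the highest Isx of the WTCM libraries, and without it Isx gave log2 2.57, adjusted p = 1.8e-18.

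Other genes with large increases follow. Cyp2c37, a cytochrome P450, was at 30.8, 17.0 and 18.3 CPM in the APCCM libraries and 4.55, 2.46 and 2.77 CPM in the WTCM libraries (log2 fold change 2.79, SE 0.21, adjusted p = 1.9e-08), and its reads may be shared with other Cyp2c genes. Vnn1, a pantetheinase, was at 30.2, 30.2 and 28.9 CPM against 9.70, 5.50 and 5.50 CPM (log2 fold change 2.14, SE 0.13, adjusted p = 1e-09), and Hsd17b2, which inactivates sex steroids, at 11.6, 14.6 and 11.1 CPM against 2.55, 3.22 and 2.99 CPM (log2 fold change 2.07, SE 0.14, adjusted p = 2.8e-09). Akr1b8, Ces1g, the chloride channel Ano1 and the receptor Pear1 rose by 1.96, 1.59, 1.60 and 1.62. Reg3g, an antibacterial lectin, was at 777, 811 and 865 CPM in the APCCM libraries and 290.2, 268 and 293 CPM in the WTCM libraries (log2 fold change 1.53, SE 0.05, adjusted p = 9.5e-13). Reg3b rose by 0.49, while Reg3a was at 34.7, 31.8 and 29.6 CPM against 60.2, 74.4 and 75.7 CPM (log2 fold change -1.14, SE 0.08, adjusted p = 2.3e-09). The 3 Reg3 genes are similar in sequence, and their counts are uncertain for that reason. In the list of epithelial defence genes 5 of 10 tested members were called higher and 2 lower, among them Nox1, an oxidase of the crypt, at 9.39, 6.86 and 9.70 CPM against 19.2, 13.9 and 17.8 CPM (log2 fold change -0.96, SE 0.13, adjusted p = 1.5e-05). Dmbt1, a secreted scavenger receptor, rose by 0.63 (adjusted p = 1e-07).

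The largest decrease by the naming rule was in Scin, an actin-severing protein, at 3.28, 4.28 and 3.25 CPM in the APCCM libraries and 20.01, 20.6 and 24.7 CPM in the WTCM libraries (log2 fold change -2.61, SE 0.12, adjusted p = 3.1e-11). Vwa2, an extracellular matrix protein, was at 1.91, 1.65 and 1.65 CPM against 6.40, 7.97 and 7.64 CPM (log2 fold change -2.09, SE 0.16, adjusted p = 1.8e-08), and Ctrb1, a digestive protease precursor, at 5.82, 6.14 and 4.598 CPM against 20.8, 22.6 and 21.2 CPM (log2 fold change -1.98, SE 0.10, adjusted p = 1.1e-10). Cbs, the first enzyme of transsulfuration, was at 4.79, 3.51 and 4.77 CPM against 13.7, 13.9 and 15.5 CPM (log2 fold change -1.72, SE 0.12, adjusted p = 4.2e-09). Tubb2b, a beta tubulin, Slc5a11, an inositol transporter, Mptx1, a pentraxin, and Cfi, a complement protease, fell by 1.73, 1.62, 1.59 and 1.32. The receptor Epha7, the adhesion protein Igsf11, the sialidase Neu3, Ccdc3 and Cyp2u1 complete the 15 with Bco1 and Tnfrsf19, with falls of 1.26 to 2.00.

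Markers of fetal-like and regenerating epithelium rose. Of 10 tested members 9 were called higher and none lower, with a median of 0.85, and 9 were also called without WTCM replicate 1. Ly6a (Sca1), a marker of this state, was at 6.40, 5.52 and 4.98 CPM in the APCCM libraries and 2.93, 2.37 and 2.58 CPM in the WTCM libraries (log2 fold change 1.10, SE 0.16, adjusted p = 4.9e-05). S100a6, a calcium-binding protein, was at 74.8, 75.6 and 88.7 CPM against 55.7, 29.3 and 36.6 CPM (log2 fold change 0.99, SE 0.13, adjusted p = 1.9e-05), and Il1rn, the decoy ligand of the interleukin-1 receptor, at 14.1, 18.5 and 15.5 CPM against 9.76, 8.10 and 6.31 CPM (log2 fold change 1.01, SE 0.13, adjusted p = 1.3e-05). Areg, an EGF receptor ligand, rose by 0.83, and Msln by 0.87. WTCM replicate 1 had more S100a6 and Msln than the other WTCM libraries, and without it the differences were log2 1.27, adjusted p = 1e-11 for S100a6 and log2 1.09, adjusted p = 8.8e-11 for Msln. YAP targets, which often rise with this state, had 3 of 9 tested called higher and 3 lower, and 5 higher and 2 lower without WTCM replicate 1.

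p53 targets also rose, with 13 of 16 called higher and 1 lower (median 0.35), the same counts as without WTCM replicate 1. Cdkn1a, the p21 inhibitor of the cell cycle, was at 80.1, 80.2 and 81.1 CPM in the APCCM libraries and 52.97, 50.7 and 49.1 CPM in the WTCM libraries (log2 fold change 0.66, SE 0.04, adjusted p = 3.1e-09). Phlda3, a repressor of AKT, was at 21.6, 20.6 and 21.5 CPM against 11.9, 10.8 and 10.3 CPM (log2 fold change 0.95, SE 0.08, adjusted p = 8.1e-08), and Eda2r, a receptor, at 39.5, 35.1 and 41.5 CPM against 20.1, 22.3 and 20.8 CPM (log2 fold change 0.88, SE 0.07, adjusted p = 3.5e-08). Zmat3 and the stress cytokine Gdf15 rose by 0.74 and 0.99 (adjusted p = 1e-09 and 1.2e-05). Btg2, an anti-proliferative factor, was the one member called lower, at -0.28 (adjusted p = 0.0007). Cell cycle genes did not fall with this: 12 of 23 were called higher and none lower, by small amounts (median 0.15), and 7 were called higher without WTCM replicate 1 and 6 without APCCM replicate 3 or WTCM replicate 3. Mki67 was at 797, 836 and 764 CPM in the APCCM libraries and 663, 657 and 655 CPM in the WTCM libraries (log2 fold change 0.28, SE 0.05, adjusted p = 0.00023), and Bub1 and Rrm2 rose by 0.32 and 0.31.

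Genes of the NRF2 response to oxidants were called higher in 12 of 14 cases and lower in 1 (median 0.41). Nqo1, a quinone reductase, was at 114, 102 and 108 CPM in the APCCM libraries and 52.7, 49.7 and 70.6 CPM in the WTCM libraries (log2 fold change 0.89, SE 0.08, adjusted p = 2e-07), and Gstm1, a glutathione transferase, at 766, 735 and 716 CPM against 378, 338 and 424 CPM (log2 fold change 0.96, SE 0.06, adjusted p = 2.2e-09). Gclc, which makes the first step of glutathione synthesis, was at 179.8, 167 and 172 CPM against 115, 104 and 118 CPM (log2 fold change 0.62, SE 0.05, adjusted p = 1.8e-08). Hmox1, haem oxygenase, rose by 1.10 from a low level (3.23 ± 0.553 against 1.497 ± 0.0797 CPM, SD, n = 3), and Gsta3 by 0.61. Catalase (Cat) was the member called lower, at -0.25.

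Hypoxia and glycolysis genes were lower, 11 of 20 called against 1 called higher (median -0.30). Pgk1, a glycolytic kinase, was at 101, 93.8 and 102 CPM in the APCCM libraries and 134, 161 and 140.4 CPM in the WTCM libraries (log2 fold change -0.56, SE 0.05, adjusted p = 3.7e-07), and Bnip3, a mitophagy receptor induced by low oxygen, at 4.11, 4.18 and 2.87 CPM against 7.43, 9.84 and 6.28 CPM (log2 fold change -1.09, SE 0.18, adjusted p = 0.00015). Ndrg1, Eno1 and Aldoa fell by 0.48, 0.42 and 0.39. Egln3, an oxygen-sensing hydroxylase, was called higher, at 30.4, 26.9 and 29.6 CPM against 22.7, 23.9 and 21.2 CPM (log2 fold change 0.36, SE 0.07, adjusted p = 0.001), and Vegfa gave 0.02 (adjusted p = 0.71). In fatty acid oxidation 5 of 16 tested genes were higher (3 without APCCM replicate 2 or WTCM replicate 1) and 3 lower, with Cpt1a, which admits fatty acids to mitochondria, at 0.41.

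Further lists had members on both sides, beside 11.5% of all genes called higher and 11.6% called lower. ATF4 and amino acid response genes gave 4 higher and 3 lower of 18, with Chac1, which degrades glutathione, at 0.95 and Atf5 at -0.45. Cholesterol synthesis genes gave 4 higher and 4 lower of 23, with 1 higher and 5 lower without WTCM replicate 1, 1 or 2 higher without APCCM replicate 3 or 2, and 2 lower without WTCM replicate 3. Ribosome biogenesis genes gave 2 higher and 1 lower of 19 (10.5% and 5.26%), no more than the shares of all genes. NF-kB and chemokine genes gave 5 higher and 1 lower of 13 tested, and 2 or 3 were called higher without APCCM replicate 1, 2 or 3 or without WTCM replicate 3. The chemokine Cxcl16 was at 37.7, 34.4 and 37.1 CPM against 25.9, 24.6 and 26.8 CPM (log2 fold change 0.50, SE 0.06, adjusted p = 8.9e-06). Tnf gave 0.46 (adjusted p = 0.025) from 7.48 ± 0.830 against 5.51 ± 1.07 CPM. Leaving out 1 library moved its adjusted p to at most 0.16.

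The libraries were epithelial under both titles. All 10 epithelial markers were expressed, with a summed level of 7572 to 7847 CPM in the APCCM libraries and 6974 to 7146 CPM in the WTCM libraries. 3 keratin genes were called higher, Krt8 by 0.35, and none of the 10 lower. Of 11 fibroblast and stromal markers 2 passed the filter, 5 had 0 counts in all 6 libraries, and the list summed to 7.77 to 8.82 CPM in the APCCM libraries and 5.69 to 6.72 CPM in the WTCM libraries. Pdgfrb was called higher, at 2.49, 2.68 and 2.87 CPM against 1.46, 1.48 and 1.03 CPM (adjusted p = 0.0017). Of 12 immune markers 4 passed, with 4 at 0 throughout and sums of 16.7 to 18.2 CPM in the APCCM libraries and 13.2 to 14.4 CPM in the WTCM libraries, and Cd14 was called higher (13.9, 11.7 and 13.2 CPM against 9.11, 7.79 and 9.56 CPM). Of 10 endothelial and neural markers 5 passed, with 3 at 0 throughout and sums of 8.94 to 10.1 CPM in the APCCM libraries and 13.6 to 14.96 CPM in the WTCM libraries. Tubb3 and Ret were called lower, at -0.99 and -0.60. The part of such cells in the interferon and other lists was not tested.

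Values on day 2, from 6 other libraries with the same titles, stood beside those of day 4 as follows. On day 2, 3331 of 14371 genes (23.2%) were called. Of 14145 genes tested on both days, 3334 were called on day 4 and 3314 on day 2, and 1660 were called in the same direction on both, which is 49.8% of the day 4 and 50.1% of the day 2 calls, while 47 were called in opposite directions. A test of the difference between days, in 1 fit of 12 libraries with an interaction term, called 568 of 14970 genes (3.79%).

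No interferon-stimulated gene had a called difference between days (0 of 25 tested by edgeR and 0 by DESeq2, with 9 at an unadjusted p under 0.05 in edgeR). Their median was 1.79 on day 2 and 1.29 on day 4. Of the 22 tested on both days, 18 had a lower log2 fold change on day 4 than on day 2 and 4 a higher one. In the stem cell list 8 of 18 members had a called difference (7 without WTCM replicate 1 of day 4), with medians of -0.03 on day 2 and -0.35 on day 4. Olfm4 gave log2 -0.44 on day 2 and -1.05 on day 4 (difference -0.61, adjusted p = 1.7e-06), Rgmb -0.16 and -0.73 (difference -0.58, adjusted p = 8.7e-06), and Sorbs2 0.13 and -0.44 (difference -0.58, adjusted p = 0.00015). Of 18 Wnt targets 5 had a called difference, but 1 to 8 when a library was left out, with 1 each without WTCM replicate 1 or APCCM replicate 2 of day 4. For Lgr5 the difference was not called (-0.53 and -0.76, difference -0.23, adjusted p = 0.16).

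In the NF-kB list 10 of 12 tested members were called higher and 1 lower on day 2, with a median of 0.49, against 5 higher and 1 lower of 13 on day 4. In that list 8 members had a called difference between days (7 without WTCM replicate 1 of day 4). Tnf gave 2.18 on day 2 and 0.46 on day 4 (difference -1.72, adjusted p = 3.5e-05). The day 4 call of Tnf was lost without APCCM replicate 2 or 3 or WTCM replicate 3 (adjusted p = 0.061 to 0.16). Relb changed sides, from 0.36 to -0.20. The day 4 call of Relb was lost without APCCM replicate 1 or 3 or WTCM replicate 1 or 2 (adjusted p = 0.05 to 0.16). In the Paneth and goblet lists 8 and 7 members differed (7 and 3 without that library, and 2 to 4 goblet genes without any 1 of 9 of the 12 libraries), among them Lyz1 (0.66 and -0.09), Mmp7 (1.08 and 0.36) and Muc2 (1.09 and 0.33). The hypoxia list had 12 (7 without it), with Egln3 at -0.67 and 0.36 (difference 1.03, adjusted p = 3.4e-07) and Ndrg1 at -0.97 and -0.48. In the NRF2 list the increases were the larger on day 4 for Nqo1 (0.25 and 0.89, difference 0.65, adjusted p = 0.0022), Gstm1 (0.12 and 0.96) and Gclc (0.18 and 0.62).

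**Figure D5:**
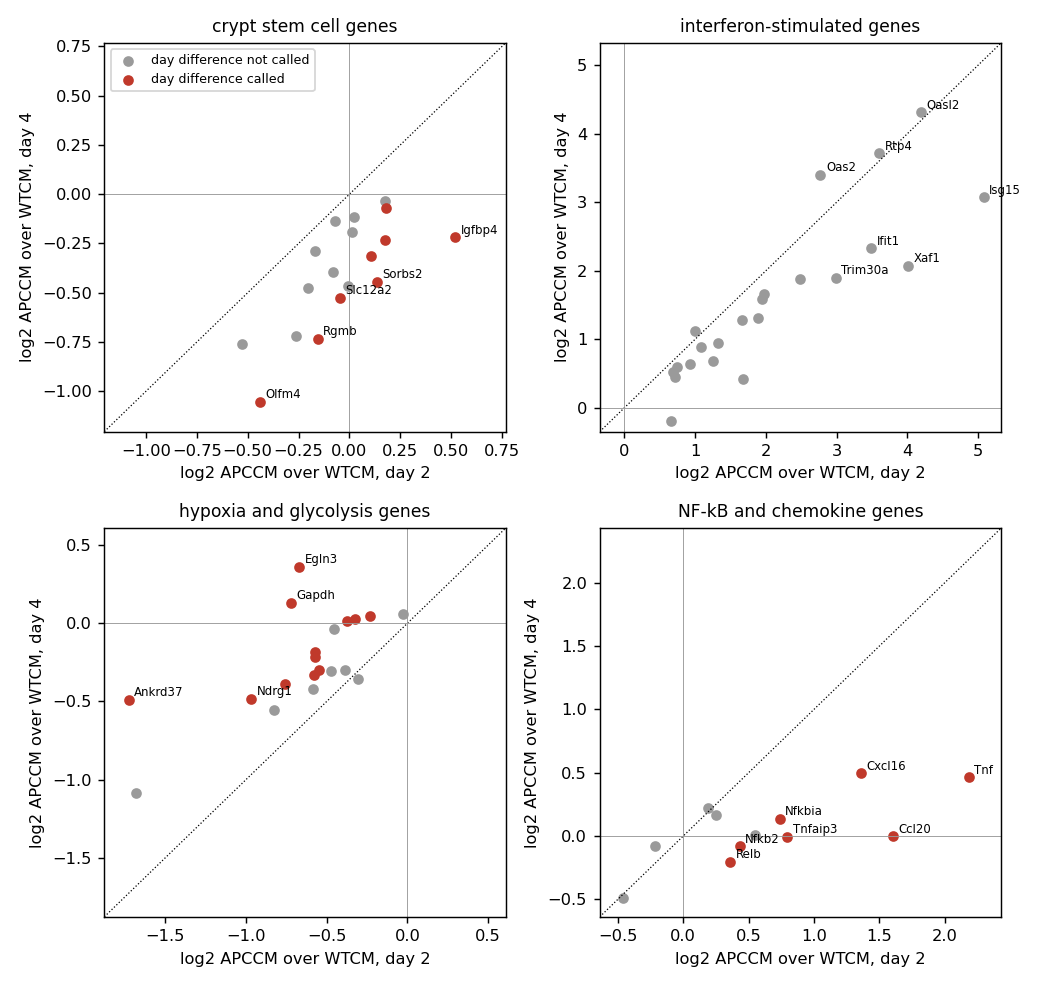
Log2 fold change between APCCM and WTCM libraries on day 4 against that on day 2 for tested members of 4 gene lists, with the line of equality dotted and members whose difference between days was called in red. All 18 stem cell genes lie below the line, the 12 called hypoxia genes lie above it, and the 7 called NF-kB genes that were tested on both days lie below it.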

How the data were processed

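The authors deposited raw read counts, 1 table for each library, of 46078 Ensembl gene identifiers followed by 5 summary lines. The submitters' processing notes name HTSeq 0.6.1p1, HISAT2 2.1.0, Trimmomatic 0.36 and the build GRCm38. The strand setting and the annotation release are stated in no source used here, and overlapping and antisense genes cannot be told apart. Per the labels' protocols, which are the same for all 16 libraries, ribosomal RNA was depleted, but the make-up of the 4 untreated libraries differed, as given with the Wnt targets. Summary lines were dropped (in the day 4 libraries 14.6 to 18.3% of all reads lay outside features, 27.6 to 33.3% had several alignments, 7.35 to 9.41% were not aligned and 0.460 to 0.560% were ambiguous). Symbols and coordinates came from GENCODE M21, which named 45229 genes (98.2%).

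The 6 day 4 libraries were fitted alone, 3 against 3, with edgeR's quasi-likelihood test (edgeR 4.0.16, limma 3.58.1, R 4.3.3), TMM scaling (factors 0.955 to 1.02), the filterByExpr filter and Benjamini-Hochberg adjustment at 0.05, with 4 residual degrees of freedom and a biological coefficient of variation of 5.62%. Day 2 was fitted likewise, and the day difference in 1 fit of 12 libraries. On counts simulated from the mean levels of these libraries (14434 genes) the day 4 fit recovered 43 of 50 genes changed 1.5-fold and 49 of 50 at 2-fold. It recovered all 50 at 4-fold and at 8-fold, with 12 unchanged genes called. The simulation gave every gene the same dispersion, held no deviating library and changed only genes with a mean above 1 CPM. Its rates need not hold for low genes or for a fit that includes WTCM replicate 1. Chi-square per degree of freedom between libraries of 1 title was above sampling noise for every pair. It was 43.9 and 46.4 for the pairs with WTCM replicate 1 and 3.50 to 6.16 for the others. Printed CPM values were scaled over all 16 libraries.

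Members and the 28 gene lists (457 entries) were chosen with earlier results of these data known. Named genes were drawn from the 15 largest rises and falls among called genes of at least 5 CPM whose groups did not overlap and whose direction held in every leave-one-out, up to 4 members per list by adjusted p, all Wnt target, Wnt antagonist and stem cell genes, and the genes that deviated most in WTCM replicate 1. Some members of the other lists, antagonists that did not pass the filter and the lowest genes of WTCM replicate 1 are not named. Outside that rule, and chosen after their values were seen, are Isg15, Oas2, Oas3, Apol9a, Irf9, Stat2, Rsad2, H2-K1, Nos2, Nox1, Muc2, Lyz1, Nts, Pax4, Insm1, Alox5, Pou2f3, Sis, Slc5a1, Scarb1, Gdf15, Btg2, Hmox1, Cat, Ly6a, Egln3, Bnip3, Vegfa, Dll1, Fgf15, Cyp1a1, Ace and Gprc5a. Values of some single list members are not reported here. Alternatives were DESeq2 (1.42.0) size factors and Wald test, other filters, a replicate block, shared spreads over 12 or 16 libraries, removal of non-polyadenylated and mitochondrial genes, leaving out each library and, added after seeing the data, removal of the 9 genes raised in WTCM replicate 1.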

Additional observations from a re-analysis of the deposited data

Results flagged for a closer look

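The results below stand out because the difference between APCCM and WTCM libraries was not the same on day 4 as on day 2. Each value is the log2 fold change on day 4 minus that on day 2, from edgeR with an interaction term over 12 libraries and Benjamini-Hochberg adjustment over 14970 genes, of which 568 (3.79%) were called. The genes are those named above, so their number says nothing on the whole.

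For these Wnt targets and crypt stem cell genes, all of them called, the difference was below 0, that is APCCM was lower relative to WTCM on day 4 than on day 2: -0.27 for Axin2, -0.26 for Ephb3, -0.25 for Rnf43, -0.26 for Znrf3, -0.31 for Cd44, -0.61 for Olfm4. The others were -0.58 for Rgmb, -0.48 for Slc12a2, -0.42 for Clca3b, -0.58 for Sorbs2, -0.41 for Msi1, -0.74 for Igfbp4 and -0.25 for Prom1, and the adjusted p lay between 1.7e-06 and 0.04. Called differences in the Wnt target list numbered 5 with all 12 libraries, but 1 without WTCM replicate 1 or APCCM replicate 2 of day 4. They numbered 2 without APCCM replicate 2, WTCM replicate 1 or WTCM replicate 3 of day 2.

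Inflammatory and defence genes gave these values: -0.87 for Cxcl16, -1.72 for Tnf, -0.56 for Relb. The others were 0.65 for Dmbt1, -2.34 for Nos2 and -1.60 for Nox1, and the adjusted p lay between 1.6e-08 and 0.00073.

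Goblet, Paneth, endocrine and enterocyte genes gave negative differences: -0.50 for Zg16, -0.76 for Muc2, -0.55 for Itln1, -0.72 for Mmp7. The others were -0.75 for Lyz1, -0.36 for Chgb, -0.49 for Apoa4 and -0.36 for Slc5a1, and the adjusted p lay between 3.3e-06 and 0.047.

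Stress, hypoxia and metabolic genes, and Areg of the regenerating epithelium list, gave these values: 0.31 for Cdkn1a, 0.84 for Gstm1, 0.65 for Nqo1, 0.44 for Gclc, -0.51 for Areg, 0.48 for Ndrg1. The others were 0.37 for Aldoa, 1.03 for Egln3, 0.35 for Vegfa and 1.26 for Chac1, and the adjusted p lay between 3.4e-07 and 0.021.

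Of the genes with the largest changes on day 4, these differed from day 2: -0.82 for Bco1, -0.90 for Scin, -0.62 for Tubb2b, 2.39 for Cyp2c37, 0.89 for Akr1b8. The others were -0.42 for Cyp2u1, -0.65 for Igsf11, -0.82 for Cfi, -1.06 for Ccdc3 and 0.79 for Pear1, and the adjusted p lay between 0.00059 and 0.045.

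Ace, named under the other observations, had a difference of 1.17 (adjusted p = 3.4e-07).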

How the results depend on the processing

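Counts of called genes over the whole genome stayed within 1.5 times their value under every alternative, while counts in some lists moved more, as given with those lists. For day 4 the count was 3370, 2550 to 2967 when 1 library was left out (2927 without WTCM replicate 1), 2580 to 3546 under the other alternatives and 3471 without the 9 genes raised in WTCM replicate 1. For changes of at least 2-fold it was 248, 235 to 288 with a library left out and 166 to 332 otherwise. For day 2 it was 3331 and 2320 to 3607 over all alternatives, and for the day difference 568 and 400 to 757. Where an arm had 2 libraries the spread was pooled over both. Equal replicate numbers did not pair the day 4 libraries (correlations of their deviations 0.047, 0.00059 and -0.041), and with a replicate block 3317 genes were called on day 4, 3231 on day 2 and 574 for the day difference. Over the 160 named genes, 2309 of 2370 values kept direction and call, 47 lost the call, 11 gained it (7 of them for Lrig1) and 3 reversed. Over the fits that leave out 1 library mt-Rnr1 ranged from -2.55 to 0.10 and mt-Rnr2 from -2.33 to 0.20 on the log2 scale, above 0 without WTCM replicate 1, and Aqp4, not called in any of them, from -0.0814 to 0.0395, above 0 without WTCM replicate 2. Alox5, Prox1, Relb, Tnf and Nts lost the call in several of these fits. Of 419 list medians over the alternatives, 15 changed sign, in lists with medians near 0. Depth limits genes under about 1 CPM: 3 counts equal 0.111 to 0.163 CPM in the day 4 libraries.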

Other observations

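Some called genes belong to none of the lists and were picked after their values were seen. Fgf15, the hormone by which the ileum signals bile acid uptake to the liver, was at 3.03, 3.30 and 2.70 CPM in the APCCM libraries and 0.651, 0.447 and 0.332 CPM in the WTCM libraries (log2 fold change 2.69, SE 0.27, adjusted p = 6.7e-07). Cyp1a1, the P450 that the aryl hydrocarbon receptor induces, was at 2.25, 2.22 and 2.95 CPM in the APCCM libraries and 0.271, 0.224 and 1.07 CPM in the WTCM libraries (log2 fold change 2.13, SE 0.36, adjusted p = 0.00026). Both were low in every library. Among abundant genes Ace, angiotensin-converting enzyme of the brush border, was at 169.7, 165 and 155 CPM in the APCCM libraries and 74.98, 69.5 and 79.9 CPM in the WTCM libraries (log2 fold change 1.12, SE 0.05, adjusted p = 1.1e-11), and Gprc5a, a receptor-like protein induced by retinoic acid, at 67.2, 70.1 and 66.9 CPM in the APCCM libraries and 30.5, 28.4 and 28.8 CPM in the WTCM libraries (log2 fold change 1.22, SE 0.05, adjusted p = 1.1e-11). The p-values are from edgeR's quasi-likelihood test, adjusted over 14612 genes. For all 4 the libraries of the 2 titles did not overlap, with APCCM higher, which held for 18.5% of all genes tested. On day 2 the log2 fold changes were 1.48 for Fgf15, 1.49 for Cyp1a1, -0.05 for Ace and 0.97 for Gprc5a.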
